A study of Mus musculus with 12 samples.

Results

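The genes described here are those whose level in Ebf2-EGFP+ cells of the embryonic mouse cortex stood lowest (a dip) or highest (a peak) at E13.5, the middle of 3 stages. A gene was a dip where both E13.5 libraries lay below all 4 libraries of E11.5 and E15.5, and a peak where both lay above them. Of 4859 coding genes, 636 were dips and 244 were peaks, and of 200 lncRNA transcripts 28 were dips and 18 were peaks. The members were thus chosen by their own levels in the 6 Ebf2-EGFP+ libraries, so their direction at E13.5 is a description of how they were chosen. All cells came from the cerebral cortex of the line Tg(Ebf2-EGFP)FB58Gsat, in which an EGFP transgene from the GENSAT project is driven by Ebf2 regulatory DNA. They were sorted by FACS into reporter-positive (Ebf2-EGFP+) and reporter-negative (Ebf2-EGFP-) cells, each at E11.5 and again at E13.5 and at E15.5, with 2 libraries for each stage and population and 12 libraries in all. Every group carried the same transgene, the Ebf2-EGFP- cells included, and each library pooled embryos of several litters, so that the spread between animals is not seen. The sorted population is defined by the reporter alone, and the study describes it as preplate neurons at the first stage and Cajal-Retzius neurons at the last, while the Ebf2-EGFP- cells are progenitors at first and later also include cortical plate neurons. For E13.5 the study states that the reporter is fading in subplate neurons and is kept in Cajal-Retzius neurons. Both tables list only features that the study reported as differential, so each share below is a share of a selected list and not of all expressed genes.

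The preplate is the first layer of neurons of the cortex. It is later split by incoming cortical plate neurons into a superficial marginal zone, home of the Cajal-Retzius neurons, and a deep subplate. Cajal-Retzius neurons arise at several borders of the cortex, the cortical hem and the septum among them, and secrete reelin, which guides radially migrating neurons. They are known for the transcription factors Trp73, Lhx1, Lhx5, Ebf2, Ebf3 and Nhlh2 and for the calcium-binding protein calretinin, encoded by Calb2.

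Levels are FPKM, fragments scaled to transcript length and library size, and every difference is on the scale log2(FPKM + 1), which understates changes of genes with low levels. The E13.5 difference of a gene was its mean at E13.5 minus the average of its E11.5 and E15.5 means, tested with limma over each whole table and called at an adjusted p under 0.05. FPKM summed over the coding table to 115111 to 146703 in the Ebf2-EGFP+ libraries, and replicate libraries correlated at r of 0.986 to 0.992 across genes. The number of fragments behind each value is unknown. Ebf2 itself, the gene whose regulatory DNA drives the reporter, measured 61.2 and 49.1 FPKM at E11.5, 6.67 and 4.32 FPKM at E13.5 and 2.83 and 5.14 FPKM at E15.5. It was therefore low at both later stages and was no dip, although its E13.5 difference was called at -1.36 ± 0.22 SE, adjusted p = 0.000733. The median FPKM was lowest, at 5.227, in E13.5 replicate 2 of the Ebf2-EGFP+ cells, against 5.78 to 6.415 in the other 5 libraries of that population, and the median E13.5 difference over all coding genes was -0.108. Median-of-ratios scaling of the libraries moved that median by 0.075. The libraries are bulk samples, in which fewer cells of a type and less RNA per cell cannot be told apart.

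The difference alone was called lower at E13.5 for 886 coding genes (18.2%) and higher for 390 (8.03%). A gene that falls or rises through all 3 stages at an uneven pace can also be called by this difference, so the order of the libraries was asked for as well. By order alone 13.1% of the coding genes were dips and 5.02% were peaks. Both conditions held for 456 dips (9.38%) and 185 peaks (3.81%), which are named called dips and called peaks below. In a stricter form, with the step from E11.5 to E13.5 and the step from E13.5 to E15.5 each called and opposite in sign, 227 genes were dips (4.67%) and 113 were peaks (2.33%). Lower calls made up 69.4% of the calls as deposited and 59.2% after median-of-ratios scaling (772 lower and 531 higher), and called dips and peaks then numbered 390 and 245. Without E13.5 replicate 2, the library with the lowest median, lower calls numbered 385, higher calls 251, called dips 254 (240 of them among the 456), called peaks 183, dips with both steps 103 and peaks by order alone 456. Without E13.5 replicate 1, higher calls numbered 232, called peaks 150, peaks with both steps 60 and dips by order alone 1014, and without E15.5 replicate 2 peaks with both steps numbered 71. Of 101 features named below by a fixed rule, 34 lost their call when a library was left out or the scaling, pseudocount or choice of libraries changed. These are named where they occur, only with the setting that gave the highest adjusted p, and other settings could lose the same call. Tubb3 lost it under 9 settings in all, Pou3f1 under 8, Grm2 under 6 and Rmrp under 5. Cdh4, Cdh10, Gm20687, Hbb-b2, Sv2b and Tubb4a each lost it under 4.

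**Figure D1:**
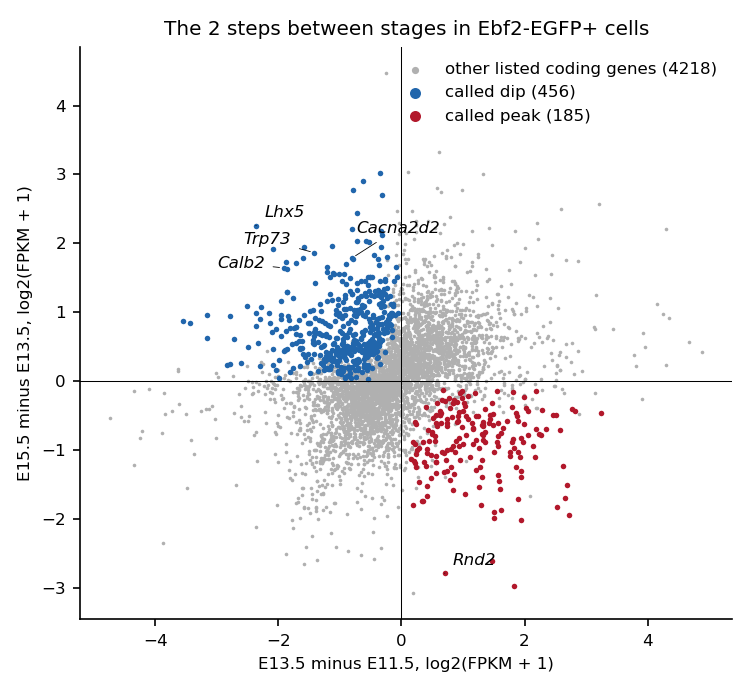
Each point is a coding gene, placed by its change from E11.5 to E13.5 (x axis) and from E13.5 to E15.5 (y axis) in Ebf2-EGFP+ cells, both in log2(FPKM + 1). The 456 called dips (blue) fill the upper left and the 185 called peaks (red) the lower right, and the other 4218 listed coding genes are grey.

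The E13.5 differences of the called dips ran from -2.31 to -0.29, with a median of -0.78, and those of the called peaks from 0.39 to 2.399, with a median of 0.98. A difference of at least 1 was reached by 136 called dips and 87 called peaks. At the edge of the order rule, the dip Foxo3 had 9.06 FPKM in its higher E13.5 library and 9.08 FPKM in the lowest other library, while Zfp629 fell just outside with 8.09 against 7.997 FPKM. On the other side, the peak Snhg1 had 53.5 against 53.4 FPKM, and Gpm6b, with 122 against 123 FPKM, was just outside. The gap between E13.5 and the nearest other library was under 0.05 for 51 called dips and 18 called peaks and at least 0.25 for 244 and 114.

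Transcription factors and calcium-handling proteins of Cajal-Retzius neurons were among the deepest dips. Lhx5, a LIM-homeodomain transcription factor (chr5:120431699-120441223, plus strand, build GRCm38), measured 25.5 and 21.5 FPKM at E11.5, 4.06 and 3.44 FPKM at E13.5 and 20.8 and 22.6 FPKM at E15.5. Its difference of -2.31 ± 0.14 SE, adjusted p = 1.03e-05, was the deepest of the called dips, and the levels at E11.5 and E15.5 overlapped. Calb2 (chr8:110137502-110168210, minus strand) measured 65.9 and 51.2 FPKM at E11.5, 16.3 and 13.2 FPKM at E13.5 and 40.8 and 56.5 FPKM at E15.5, with a difference of -1.78 ± 0.18 SE, adjusted p = 6.14e-05. Again the E11.5 and E15.5 libraries overlapped while both E13.5 libraries stood far below. Trp73, the p53-family factor of Cajal-Retzius neurons (chr4:154056253-154140208, minus strand), gave 32.7 and 36.9 FPKM at E11.5, 12.8 and 11.98 FPKM at E13.5 and 41.9 and 54.6 FPKM at E15.5, a difference of -1.64 ± 0.16 SE, adjusted p = 5.77e-05. Its E15.5 level was called above its E11.5 level, so this dip lay inside a net rise. Cacna2d2, the auxiliary α2δ-2 subunit of voltage-gated calcium channels (chr9:107399612-107529343, plus strand), gave 16.4 and 23.8 FPKM at E11.5, 11.2 and 10.6 FPKM at E13.5 and 31.1 and 51.6 FPKM at E15.5, and its difference was -1.29 ± 0.21 SE, adjusted p = 0.00101. It too ended above its E11.5 level. For all 4 of these genes the step down to E13.5 and the step up from it were each called.

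**Figure D2:**
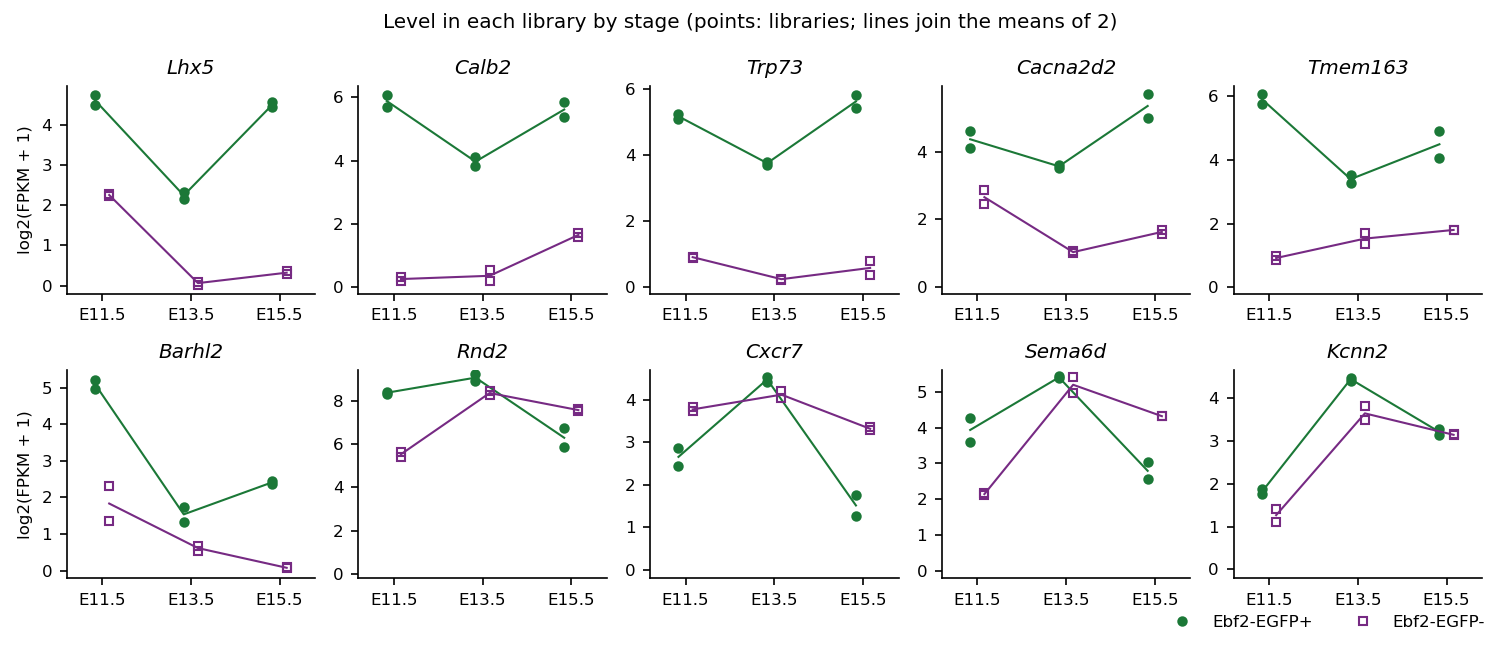
Level of 10 genes, in log2(FPKM + 1), by stage, with 1 point for each library and lines through the means of 2 (filled circles, Ebf2-EGFP+ cells; open squares, Ebf2-EGFP- cells). In the filled circles Lhx5, Calb2, Trp73, Cacna2d2, Tmem163 and Barhl2 are lowest at E13.5 and Rnd2, Cxcr7, Sema6d and Kcnn2 are highest.

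Of 14 Cajal-Retzius genes on a fixed list, all present in the table, 12 were called lower at E13.5, none higher, and 8 were called dips, 57.1% of the list against 9.38% of all coding genes. Over all coding genes 18.2% were called lower and 8.03% higher. The median E13.5 difference of the list was -1.38, against -0.11 over all coding genes. Besides the 4 genes above, the dips were Tmem163, Ebf3, Nhlh2 and Lhx1. Lhx5, Calb2, Trp73 and Cacna2d2 were given markers, and the list was chosen with earlier results known, so its share is a description and no test. Tmem163, a zinc transporter of vesicles, measured 65.2 and 52.5 FPKM at E11.5, 10.4 and 8.61 FPKM at E13.5 and 15.7 and 29.0 FPKM at E15.5, with a difference of -1.80 ± 0.22 SE, adjusted p = 0.00015. Nhlh2, a bHLH factor, measured 107 and 83.7 FPKM at E11.5, 26.8 and 24.8 FPKM at E13.5 and 40.05 and 63.6 FPKM at E15.5 (-1.39 ± 0.24 SE, adjusted p = 0.00149). Ebf3, a paralog of Ebf2, gave 45.4 and 45.1 FPKM at E11.5, 10.3 and 9.36 FPKM at E13.5 and 13.9 and 20.02 FPKM at E15.5. Lhx1, a paralog of Lhx5, gave 12.2 and 13.7 FPKM at E11.5, 2.83 and 1.80 FPKM at E13.5 and 3.90 and 3.16 FPKM at E15.5. The dips of the list regained unequal shares of their E11.5 level. Nhlh2, Tmem163, Ebf3 and Lhx1 were called lower at E15.5 than at E11.5, whereas Lhx5 and Calb2 were not called in either direction between those stages.

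The other 6 genes of the list were no dips, although 4 of them (Ebf2, Ndnf, Car10 and Cdkn1a) were called lower. Reln, which encodes reelin, measured 75.9 and 76.3 FPKM at E11.5, 125 and 187 FPKM at E13.5 and 399.5 and 925 FPKM at E15.5, a steady increase in which no E13.5 library lay below an E11.5 library, and its E13.5 difference was -0.49 ± 0.28 SE, adjusted p = 0.232. Nxph3, a neurexophilin, likewise measured 1.88 and 2.14 FPKM at E11.5, 16.7 and 26.3 FPKM at E13.5 and 93.5 and 56.9 FPKM at E15.5. Ndnf had the lowest E13.5 difference on the list, -2.36 ± 0.42 SE, adjusted p = 0.00151, but its libraries gave 1.08 and 1.001 FPKM at E11.5, 0.251 and 1.36 FPKM at E13.5 and 17.9 and 76.0 FPKM at E15.5, so that the E11.5 and E13.5 values overlapped and the difference came from E15.5. Car10 was of the same kind, with 1.37 and 0.995 FPKM at E11.5, 1.01 and 1.15 FPKM at E13.5 and 5.76 and 18.7 FPKM at E15.5. Cdkn1a, a cell cycle inhibitor, gave 36.4 and 29.0 FPKM at E11.5, 9.08 and 3.68 FPKM at E13.5 and 9.59 and 5.51 FPKM at E15.5 and, like Ebf2, was low at both later stages. Summed over all 14 genes, the list stood at 548 and 487 FPKM at E11.5, 253 and 308 FPKM at E13.5 and 737 and 1388 FPKM at E15.5. Reln weighed most in these sums at E13.5 and E15.5, while at E11.5 Nhlh2 stood above it.

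**Figure D3:**
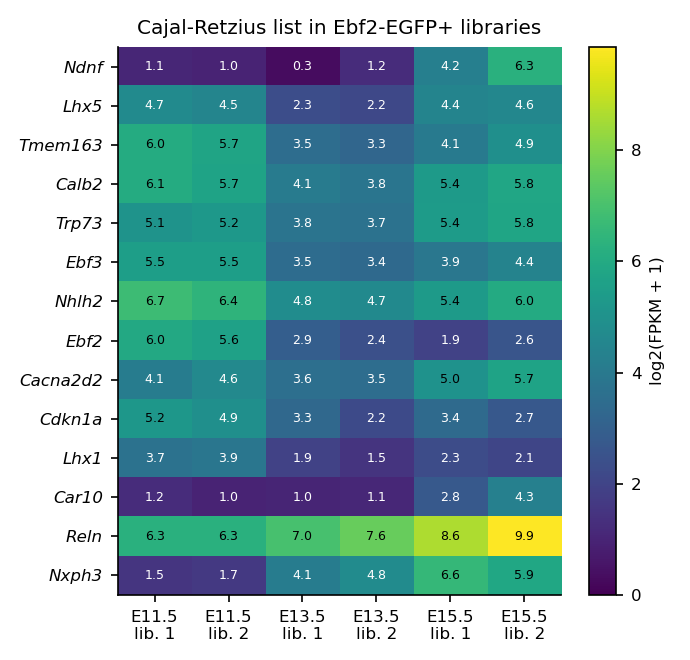
Level of the 14 Cajal-Retzius genes (rows, ordered by E13.5 difference) in the 6 Ebf2-EGFP+ libraries (columns), as log2(FPKM + 1) by colour and number. The 2 E13.5 columns are darkest for Lhx5, Tmem163, Calb2, Trp73, Ebf3, Nhlh2, Cacna2d2 and Lhx1, while Reln and Nxph3 brighten from stage to stage.

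Several further deep dips encode regulators and receptors outside that list. Barhl2, a homeodomain factor, measured 36.1 and 30.4 FPKM at E11.5, 2.35 and 1.52 FPKM at E13.5 and 4.21 and 4.47 FPKM at E15.5 (-2.22 ± 0.23 SE, adjusted p = 6.14e-05), so it recovered only in small part. Gfra1, the GDNF co-receptor, measured 9.62 and 6.19 FPKM at E11.5, 1.27 and 0.853 FPKM at E13.5 and 5.51 and 8.27 FPKM at E15.5 (-2.005 ± 0.23 SE, adjusted p = 0.000107), and its E11.5 and E15.5 libraries overlapped. Fam65b behaved alike, with 13.9 and 11.7 FPKM at E11.5, 2.73 and 2.77 FPKM at E13.5 and 9.59 and 13.6 FPKM at E15.5 (-1.80 ± 0.19 SE, adjusted p = 6.15e-05). Resp18, a protein of endocrine secretory granules, measured 18.4 and 12.3 FPKM at E11.5, 1.61 and 1.09 FPKM at E13.5 and 2.85 and 4.24 FPKM at E15.5 (-1.86 ± 0.19 SE, adjusted p = 5.78e-05). Like Barhl2, it was called lower at E15.5 than at E11.5.

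Genes of the cortical hem, septum and choroid plexus were the list with the next highest share of dips. Of 17 listed members 10 were called lower, none higher, and 7 were called dips (41.2%, against 9.38% of all coding genes), with a median of -0.49. In Ebf2-EGFP- cells 15 of the 17 were called lower and none higher, with a median of -1.12. Zic1, a zinc-finger factor of the dorsal midline, measured 40.5 and 44.4 FPKM at E11.5, 9.35 and 6.64 FPKM at E13.5 and 17.9 and 17.5 FPKM at E15.5 (-1.68 ± 0.25 SE, adjusted p = 0.000484). Rspo2, an R-spondin that strengthens Wnt signalling, gave 4.50 and 5.88 FPKM at E11.5, 1.63 and 0.777 FPKM at E13.5 and 2.87 and 2.90 FPKM at E15.5 (-1.18 ± 0.27 SE, adjusted p = 0.00721). Bmp7, a bone morphogenetic protein, gave 6.19 and 6.86 FPKM at E11.5, 1.57 and 1.22 FPKM at E13.5 and 2.01 and 3.78 FPKM at E15.5 (-1.16 ± 0.21 SE, adjusted p = 0.00204). Zic5, of the same family as Zic1, gave 3.97 and 4.97 FPKM at E11.5, 1.18 and 0.921 FPKM at E13.5 and 2.93 and 2.82 FPKM at E15.5 (-1.17 ± 0.23 SE, adjusted p = 0.00319). In all 4 the E11.5 libraries were highest and the E15.5 libraries lay between. The call of Rspo2 (adjusted p = 0.114) did not hold without E13.5 replicate 2. In the same hem list, Ttr and Folr1, defining markers of the choroid plexus, were below 0.8 FPKM in every Ebf2-EGFP+ library.

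Col1a1, Lgals1 and Igf2 were also among the 10 deepest dips, and these genes are known from meningeal and other mesenchymal cells. Col1a1, a collagen chain, measured 10.9 and 12.7 FPKM at E11.5, 0.304 and 0.0786 FPKM at E13.5 and 0.511 and 2.003 FPKM at E15.5 (-2.14 ± 0.23 SE, adjusted p = 7.11e-05). Igf2, a growth factor, measured 14.2 and 17.0 FPKM at E11.5, 1.28 and 0.508 FPKM at E13.5 and 2.18 and 1.55 FPKM at E15.5 (-1.89 ± 0.20 SE, adjusted p = 6.14e-05). Lgals1, galectin-1, measured 16.7 and 17.3 FPKM at E11.5, 0.887 and 1.16 FPKM at E13.5 and 2.36 and 3.56 FPKM at E15.5 (-2.06 ± 0.35 SE, adjusted p = 0.0011). All 3 were high at E11.5 and low at both later stages. The whole list for meninges, fibroblasts and pericytes, 12 genes in the table, had 6 members called lower and 1 called dip (8.33%), which was Col1a1, and its summed level was 44.7 and 50.7 FPKM at E11.5, 2.48 and 1.86 FPKM at E13.5 and 2.93 and 7.77 FPKM at E15.5. The list for ganglionic eminence and interneurons, 18 genes, had 9 called lower and 2 called dips (11.1%, near the 9.38% of all coding genes). Over all coding genes 18.2% were called lower. Dlx2, a homeodomain factor of interneuron precursors, measured 2.31 and 2.28 FPKM at E11.5, 0.472 and 0.419 FPKM at E13.5 and 0.772 and 0.52 FPKM at E15.5 (-0.69 ± 0.16 SE, adjusted p = 0.00809). Slc32a1, the vesicular GABA transporter, measured 1.45 and 1.75 FPKM at E11.5, 0.131 and 0.122 FPKM at E13.5 and 0.523 and 0.338 FPKM at E15.5 (-0.77 ± 0.20 SE, adjusted p = 0.0131). When E13.5 replicate 2 was left out, Dlx2 (adjusted p = 0.071) and Slc32a1 (adjusted p = 0.0891) were no longer called. The summed level of this list was 33.0 and 36.6 FPKM at E11.5, 16.8 and 9.58 FPKM at E13.5 and 28.2 and 34.3 FPKM at E15.5. The part that cells of these kinds had in the dips was not tested.

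Glutamate receptor genes held several dips. Of 16 glutamate receptor genes 5 were called dips (31.2%) and none a called peak, against 9.38% and 3.81% of all coding genes. In this list 7 were called lower and 2 higher, against 18.2% and 8.03% of all coding genes, and the median was 0.0031. Grm3, a group II metabotropic receptor, measured 1.36 and 1.01 FPKM at E11.5, 0.278 and 0.254 FPKM at E13.5 and 5.82 and 9.92 FPKM at E15.5 (-1.78 ± 0.18 SE, adjusted p = 6.14e-05). Grik4, a kainate receptor subunit, measured 1.89 and 2.02 FPKM at E11.5, 0.46 and 0.43 FPKM at E13.5 and 1.92 and 1.83 FPKM at E15.5 (-1.01 ± 0.12 SE, adjusted p = 0.000105), and E11.5 and E15.5 overlapped. Grm4 gave 1.04 and 0.959 FPKM at E11.5, 0.229 and 0.166 FPKM at E13.5 and 1.30 and 1.29 FPKM at E15.5 (-0.84 ± 0.11 SE, adjusted p = 0.000169). Grm2 gave 9.37 and 11.8 FPKM at E11.5, 6.36 and 5.30 FPKM at E13.5 and 10.7 and 9.24 FPKM at E15.5 (-0.72 ± 0.21 SE, adjusted p = 0.0244). Without E13.5 replicate 2 the call of Grm2 (adjusted p = 0.188) was lost. By contrast the AMPA receptor gene Gria3 measured 1.65 and 1.65 FPKM at E11.5, 16.6 and 18.6 FPKM at E13.5 and 21.1 and 17.0 FPKM at E15.5 and was called higher (1.35 ± 0.17 SE, adjusted p = 0.000151) without being a peak.

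Among 20 listed calcium channel genes 4 were called dips (20%, against 9.38% of all coding genes) and none a called peak. They were Cacna2d2 and 3 genes of the Cacng family, some of which encode AMPA receptor auxiliary subunits. Cacng5 measured 1.79 and 1.76 FPKM at E11.5, 0.561 and 0.813 FPKM at E13.5 and 4.33 and 14.5 FPKM at E15.5 (-1.58 ± 0.30 SE, adjusted p = 0.00268). Cacng2 measured 4.18 and 3.68 FPKM at E11.5, 2.96 and 2.02 FPKM at E13.5 and 5.38 and 4.05 FPKM at E15.5 (-0.61 ± 0.18 SE, adjusted p = 0.0248). Cacng4 measured 64.4 and 61.9 FPKM at E11.5, 61.2 and 60.4 FPKM at E13.5 and 134 and 109 FPKM at E15.5 (-0.52 ± 0.12 SE, adjusted p = 0.00713). The E11.5 and E13.5 levels of Cacng4 were nearly equal, so that its difference came from E15.5. The calls of Cacng2 (adjusted p = 0.265) and Cacng4 (adjusted p = 0.068) did not hold without E13.5 replicate 2. The pore-forming Cacna1 genes held no dip. Of only 6 sodium channel genes 2 were called dips, against 9.38% of all coding genes. Scn3a measured 14.0 and 17.6 FPKM at E11.5, 5.75 and 4.63 FPKM at E13.5 and 7.71 and 8.47 FPKM at E15.5 (-0.9997 ± 0.18 SE, adjusted p = 0.00204). Scn9a measured 2.19 and 2.31 FPKM at E11.5, 0.453 and 0.269 FPKM at E13.5 and 0.64 and 0.758 FPKM at E15.5 (-0.79 ± 0.094 SE, adjusted p = 0.00013). Both were highest at E11.5. Of 42 potassium channel genes 5 were called dips (11.9%, near the 9.38% of all coding genes) and 3 called peaks (7.14%, against 3.81%). In each direction 10 were called, against 18.2% lower and 8.03% higher over all coding genes. The 4 deepest of these dips were Kcnip2 (-1.68, adjusted p = 0.000169), Kcnh2 (-0.89, adjusted p = 0.00101), Kcnk9 (-0.87, adjusted p = 0.0101) and Kcnk2 (-0.81, adjusted p = 0.00527). None of them passed the stricter test of both steps. The step down to E13.5 was not called for Kcnip2, Kcnk9 and Kcnk2 (adjusted p = 0.249, 0.382 and 0.248). For Kcnh2 the step up from E13.5 was not called (adjusted p = 0.1585). Kcnip2, a partner of voltage-gated potassium channels, measured 3.58 and 2.69 FPKM at E11.5, 2.11 and 2.398 FPKM at E13.5 and 18.4 and 35.2 FPKM at E15.5, and it, Kcnk2 and Kcnk9 had their highest levels at E15.5. When E13.5 replicate 2 was left out, Kcnk2 (adjusted p = 0.0818) and Kcnk9 (adjusted p = 0.103) were no longer called.

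Axon guidance genes were called in both directions. Of 53 listed members 11 were called dips (20.8%) and 10 called peaks (18.9%), against 9.38% and 3.81% of all coding genes. The median difference of the list was -0.02. The netrin receptors were split. Unc5c was a dip with 3.60 and 4.49 FPKM at E11.5, 0.532 and 0.354 FPKM at E13.5 and 1.69 and 1.23 FPKM at E15.5 (-1.28 ± 0.15 SE, adjusted p = 0.000125). Unc5b was a dip with 7.47 and 9.07 FPKM at E11.5, 4.16 and 3.29 FPKM at E13.5 and 9.12 and 15.3 FPKM at E15.5 (-1.21 ± 0.19 SE, adjusted p = 0.000772). Their paralog Unc5d was a peak with 1.76 and 1.86 FPKM at E11.5, 8.79 and 9.25 FPKM at E13.5 and 5.04 and 3.31 FPKM at E15.5 (1.40 ± 0.20 SE, adjusted p = 0.000362). Netrin-4, encoded by Ntn4, was a dip (-1.16, adjusted p = 0.00232). Ntn4 measured 6.54 and 7.63 FPKM at E11.5, 1.21 and 1.26 FPKM at E13.5 and 3.01 and 1.41 FPKM at E15.5. Its step up from E13.5 was not called (limma, adjusted p = 0.153). The plexins, receptors for semaphorins, were split too. Plxna1 was a dip with 53.3 and 60.9 FPKM at E11.5, 21.6 and 27.4 FPKM at E13.5 and 55.9 and 33.8 FPKM at E15.5 (-1.004 ± 0.18 SE, adjusted p = 0.00184). Plxnd1 was a peak with 4.88 and 7.12 FPKM at E11.5, 46.8 and 45.6 FPKM at E13.5 and 33.5 and 36.0 FPKM at E15.5 (1.59 ± 0.18 SE, adjusted p = 9.52e-05). Among the ligands, Sema6d was a peak with 11.1 and 18.2 FPKM at E11.5, 42.1 and 40.3 FPKM at E13.5 and 7.14 and 4.89 FPKM at E15.5 (2.04 ± 0.20 SE, adjusted p = 5.40e-05). Sema4d was a peak with 2.28 and 2.56 FPKM at E11.5, 19.2 and 17.8 FPKM at E13.5 and 15.03 and 10.9 FPKM at E15.5 (1.5 ± 0.15 SE, adjusted p = 6.11e-05).

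Transcription factors of the cortical plate were on both sides as well. Of 23 genes for cortical plate and layer identity 4 were called dips (17.4%) and 2 called peaks (8.7%), against 9.38% and 3.81% of all coding genes. In this list 5 were called lower and 9 higher, against 18.2% and 8.03% of all coding genes, with a median of 0.36. The dips were Tle4, a corepressor, with 27.0 and 25.4 FPKM at E11.5, 16.7 and 19.7 FPKM at E13.5 and 59.0 and 48.9 FPKM at E15.5 (-1.01 ± 0.13 SE, adjusted p = 0.000223), and 3 POU-domain factors. Of these Pou3f2 measured 13.8 and 14.6 FPKM at E11.5, 4.30 and 1.88 FPKM at E13.5 and 5.05 and 8.57 FPKM at E15.5 (-1.46 ± 0.24 SE, adjusted p = 0.00107). Pou3f3 measured 63.0 and 61.0 FPKM at E11.5, 30.6 and 28.9 FPKM at E13.5 and 36.1 and 47.6 FPKM at E15.5 (-0.75 ± 0.14 SE, adjusted p = 0.00211). Pou3f1 measured 7.50 and 6.79 FPKM at E11.5, 5.89 and 4.41 FPKM at E13.5 and 7.26 and 13.9 FPKM at E15.5 (-0.64 ± 0.21 SE, adjusted p = 0.0445). Tle4 was highest at E15.5, and Pou3f2 and Pou3f3 at E11.5. Without E13.5 replicate 2 the call of Pou3f1 (adjusted p = 0.314) was lost. The call of Pou3f1 was lost under 8 settings in all. The peaks were Neurod6 and Sox5. Neurod6, a bHLH factor of excitatory neurons, measured 69.0 and 97.0 FPKM at E11.5, 472 and 436 FPKM at E13.5 and 369 and 283 FPKM at E15.5 (1.47 ± 0.19 SE, adjusted p = 0.000203). Sox5, an SRY-box factor of deep-layer neurons, measured 8.78 and 11.1 FPKM at E11.5, 69.9 and 82.1 FPKM at E13.5 and 63.7 and 49.4 FPKM at E15.5 (1.62 ± 0.21 SE, adjusted p = 0.0002). The bHLH factor Bhlhe22 was a peak of the same shape, with 14.3 and 15.49 FPKM at E11.5, 56.3 and 53.8 FPKM at E13.5 and 49.4 and 48.6 FPKM at E15.5 (0.99 ± 0.12 SE, adjusted p = 0.000112). In all 3 the E11.5 libraries were far lower than the rest and the E15.5 libraries lay just below those of E13.5. None of the 3 passed the stricter test of both steps.

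Some abundant neuronal genes were called dips. Tubb3, the neuronal β-tubulin, measured 2199 and 1885 FPKM at E11.5, 1438 and 1344 FPKM at E13.5 and 1902 and 1973 FPKM at E15.5 (-0.51 ± 0.17 SE, adjusted p = 0.0448). Ina, the neurofilament protein α-internexin, measured 361 and 298 FPKM at E11.5, 179 and 204 FPKM at E13.5 and 299 and 281 FPKM at E15.5 (-0.69 ± 0.16 SE, adjusted p = 0.00841). Nkain1, which encodes a partner of the sodium pump, measured 184 and 159.8 FPKM at E11.5, 100.4 and 97.3 FPKM at E13.5 and 139.8 and 144 FPKM at E15.5 (-0.66 ± 0.12 SE, adjusted p = 0.00225). Trp53i11 (-0.53, adjusted p = 0.00761) and the β-tubulin gene Tubb4a (-0.56, adjusted p = 0.0185) were the other 2 of the 5 most abundant called dips. The calls of Tubb3 (adjusted p = 0.254) and Trp53i11 (adjusted p = 0.0711) did not hold without E13.5 replicate 2, and without E13.5 replicate 1 those of Tubb4a (adjusted p = 0.143) and Ina (adjusted p = 0.092). The call of Tubb3 was lost under 9 settings in all. The microtubule proteins Map6 (-0.94 ± 0.14 SE, adjusted p = 0.000621) and Stmn4 (-1.05 ± 0.18 SE, adjusted p = 0.00115) dipped as well, and of 52 genes for tubulin and microtubule proteins 4 were called dips (7.69%, below the 9.38% of all coding genes) and 1 a called peak. That peak was the α-tubulin gene Tuba4a, with 5.92 and 5.25 FPKM at E11.5, 18.3 and 12.5 FPKM at E13.5 and 4.35 and 3.02 FPKM at E15.5 (1.55 ± 0.18 SE, adjusted p = 0.00012). Smaller dips in other lists were Tnc (-1.08, adjusted p = 0.00013), Jag2 (-0.98, adjusted p = 0.00362), Cdh18 (-0.84, adjusted p = 0.000257), Cdh4 (-0.79, adjusted p = 0.0182) and Cdh6 (-0.56, adjusted p = 0.0137), and, for synaptic release, Rims4 (-0.83, adjusted p = 0.0163), Rims3 (-0.78, adjusted p = 0.0202) and Rab3b (-0.498, adjusted p = 0.0205). Tnc encodes the matrix protein tenascin C, Jag2 a Notch ligand and the Cdh genes cadherins. When E13.5 replicate 2 was left out, Rims4 (adjusted p = 0.188), Rims3 (adjusted p = 0.149) and Rab3b (adjusted p = 0.191) were no longer called, and neither were Cdh4 (adjusted p = 0.123) and Cdh6 (adjusted p = 0.096) without replicate 1.

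Genes of radial migration were the list with the highest share of peaks. Of 17 listed members 8 were called higher at E13.5, none lower, and 5 were called peaks (29.4%, against 3.81% of all coding genes), with a median difference of 0.55. In Ebf2-EGFP- cells 7 of the 17 were called higher and 1 lower, with a median of 0.43. Rnd2, a small GTPase that is needed for radial migration (chr11:101464999-101471853, plus strand), measured 325 and 344 FPKM at E11.5, 604 and 492 FPKM at E13.5 and 106 and 57.6 FPKM at E15.5. Its difference was 1.75 ± 0.21 SE, adjusted p = 0.000125, both steps were called, and E15.5 lay far below E11.5. Flrt2, a membrane protein that repels Unc5-bearing cells, measured 4.18 and 5.96 FPKM at E11.5, 25.1 and 20.4 FPKM at E13.5 and 12 and 11.53 FPKM at E15.5 (1.43 ± 0.17 SE, adjusted p = 0.000111). Plxnd1, Unc5d and Plxna4 were the other 3. Plxna4 gave 25.1 and 32.5 FPKM at E11.5, 42.5 and 38.1 FPKM at E13.5 and 11.7 and 17.8 FPKM at E15.5 (0.95 ± 0.25 SE, adjusted p = 0.0166). Rnd3, a paralog of Rnd2, measured 61.0 and 48.2 FPKM at E11.5, 72.0 and 53.5 FPKM at E13.5 and 7.37 and 5.69 FPKM at E15.5 and was called higher (1.64 ± 0.18 SE, adjusted p = 7.11e-05) without being a peak, because E11.5 and E13.5 overlapped.

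The peak with the largest difference was Cxcr7, the atypical receptor of the chemokine CXCL12. It measured 4.48 and 6.27 FPKM at E11.5, 20.6 and 22.2 FPKM at E13.5 and 2.398 and 1.40 FPKM at E15.5 (2.399 ± 0.17 SE, adjusted p = 2.36e-05), and no other library came near the E13.5 pair. Hs3st1, a heparan sulfate sulfotransferase, measured 2.77 and 5.01 FPKM at E11.5, 29.2 and 29.1 FPKM at E13.5 and 10 and 6.81 FPKM at E15.5 (2.18 ± 0.20 SE, adjusted p = 4.10e-05). Kcnn2, a calcium-activated potassium channel, measured 2.37 and 2.65 FPKM at E11.5, 20.02 and 21.1 FPKM at E13.5 and 8.69 and 7.74 FPKM at E15.5 (1.93 ± 0.15 SE, adjusted p = 2.71e-05). The potassium channel genes held 2 further called peaks. Kcna1 measured 0.0503 and 0.0881 FPKM at E11.5, 4.26 and 4.67 FPKM at E13.5 and 2.61 and 2.16 FPKM at E15.5 (1.52 ± 0.16 SE, adjusted p = 6.14e-05). Kcnn3, a paralog of Kcnn2, measured 0.322 and 0.649 FPKM at E11.5, 4.11 and 5.14 FPKM at E13.5 and 2.003 and 1.28 FPKM at E15.5 (1.51 ± 0.17 SE, adjusted p = 9.52e-05). A pair of solute carriers peaked as well. Slc30a10, a manganese transporter, measured 1.84 and 3.43 FPKM at E11.5, 12.6 and 11.7 FPKM at E13.5 and 3.31 and 2.73 FPKM at E15.5 (1.80 ± 0.19 SE, adjusted p = 6.14e-05). Slc15a2, a peptide transporter, measured 0.145 and 2.34 FPKM at E11.5, 5.97 and 7.13 FPKM at E13.5 and 0.816 and 0.92 FPKM at E15.5 (1.98 ± 0.36 SE, adjusted p = 0.00194). Adamts18, a secreted metalloprotease, measured 0.229 and 0.392 FPKM at E11.5, 10.5 and 12.3 FPKM at E13.5 and 9.08 and 7.05 FPKM at E15.5 (1.85 ± 0.15 SE, adjusted p = 2.71e-05), so that its E15.5 libraries lay close to those of E13.5.

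Subplate genes held 3 called peaks (25%) and 1 called dip (8.33%) among 12 listed members, against 3.81% and 9.38% of all coding genes. In this list 4 were called higher and 2 lower, against 8.03% and 18.2% of all coding genes, with a median of -0.16. In Ebf2-EGFP- cells 8 of the 12 were called higher and 2 lower, with a median of 0.73. Tmem178 measured 24.5 and 23.1 FPKM at E11.5, 60.5 and 56.9 FPKM at E13.5 and 23.2 and 16.5 FPKM at E15.5 (1.40 ± 0.16 SE, adjusted p = 0.000106). Syt4, a synaptotagmin, measured 27.8 and 21.4 FPKM at E11.5, 74.9 and 51.3 FPKM at E13.5 and 32.0 and 40.9 FPKM at E15.5 (1.04 ± 0.21 SE, adjusted p = 0.00376). Sstr2, a somatostatin receptor, measured 17.5 and 24.3 FPKM at E11.5, 39.1 and 34.2 FPKM at E13.5 and 17.4 and 9.48 FPKM at E15.5 (1.12 ± 0.22 SE, adjusted p = 0.00302). The dip was Nr4a2, a nuclear receptor, with 7.40 and 8.40 FPKM at E11.5, 3.26 and 2.51 FPKM at E13.5 and 13.9 and 9.02 FPKM at E15.5 (-1.43 ± 0.18 SE, adjusted p = 0.000169). Without E13.5 replicate 1 the call of Syt4 (adjusted p = 0.0644) was lost. The subplate list as a whole summed to 567 and 515 FPKM at E11.5, 560 and 529 FPKM at E13.5 and 396 and 345 FPKM at E15.5, so it was not at its highest at E13.5. Among peaks of other lists, Fabp7, a fatty-acid binding protein of radial glia, measured 16.4 and 16.6 FPKM at E11.5, 50.4 and 51.0 FPKM at E13.5 and 33.8 and 24.3 FPKM at E15.5 (1.18 ± 0.21 SE, adjusted p = 0.00142). Further peaks were the large cadherins Fat4 (1.21 ± 0.18 SE, adjusted p = 0.000472) and Fat3 (0.69 ± 0.14 SE, adjusted p = 0.00435). Smaller called peaks were Slc17a7 (0.88, adjusted p = 0.0153), Cplx2 (0.63, adjusted p = 0.00611), Sv2b (0.67, adjusted p = 0.0308), Chrm3 (0.77, adjusted p = 0.0013) and Cdh10 (0.56, adjusted p = 0.0353). Slc17a7 is the vesicular glutamate transporter VGLUT1, Cplx2 and Sv2b are proteins of synaptic vesicle release, and Chrm3 is a muscarinic receptor. Ndn, which encodes necdin, was among the most abundant peaks with 347 and 275 FPKM at E11.5, 523 and 405 FPKM at E13.5 and 323 and 264 FPKM at E15.5 (0.61 ± 0.16 SE, adjusted p = 0.0154). The calls of Fat3 (adjusted p = 0.083) and Cplx2 (adjusted p = 0.0569) did not hold without E13.5 replicate 2, and without E13.5 replicate 1 those of Ndn (adjusted p = 0.19), Slc17a7 (adjusted p = 0.117), Sv2b (adjusted p = 0.28) and Cdh10 (adjusted p = 0.304). Without replicate 1 the difference of Sv2b was 0.44 and that of Cdh10 was 0.37.

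**Figure D4:**
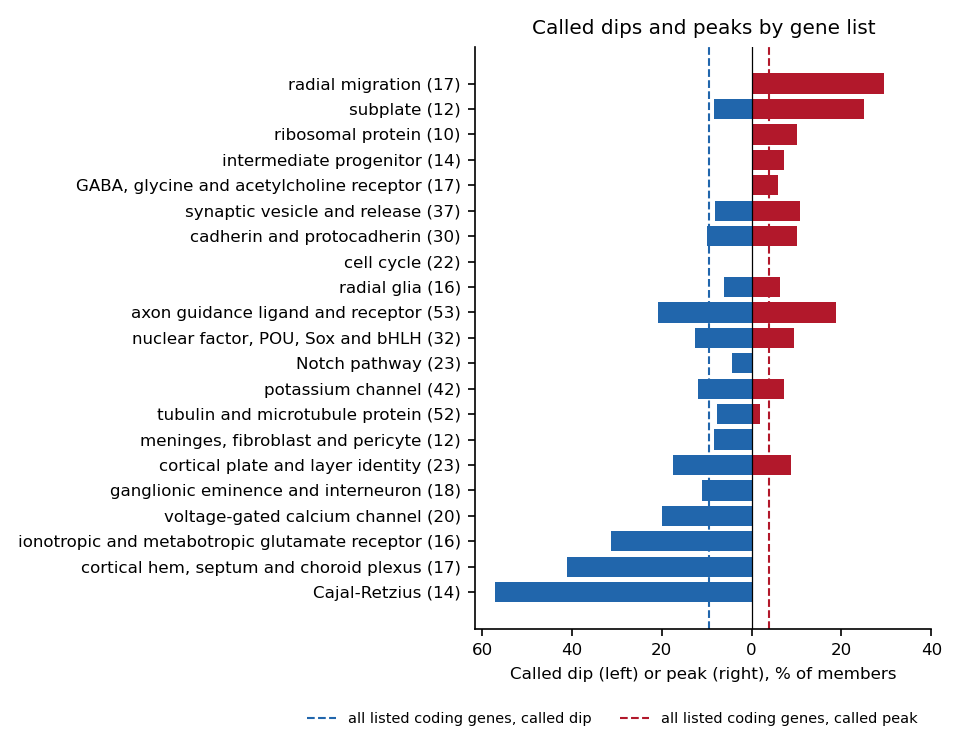
Share of each fixed gene list (members in the table in brackets, lists of 10 or more) that was a called dip (blue, to the left) or a called peak (red, to the right), in percent. Dashed lines mark the shares over all 4859 coding genes, 9.38% and 3.81%, and the Cajal-Retzius list reaches furthest to the left (57.1%) and the radial migration list furthest to the right (29.4%). Both of these lists include given markers, and all lists were chosen with earlier results of these data known.

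Among the 10 called peaks with the largest differences were also Rn45s, Rmrp and Lars2. Rn45s, the 45S precursor of ribosomal RNA, measured 183 and 312 FPKM at E11.5, 1971 and 1275 FPKM at E13.5 and 607 and 281 FPKM at E15.5 (2.33 ± 0.54 SE, adjusted p = 0.00766). Rmrp, the RNA of a ribosomal RNA processing enzyme, measured 3.94 and 3.08 FPKM at E11.5, 36.9 and 21.02 FPKM at E13.5 and 18.1 and 4.45 FPKM at E15.5 (2.09 ± 0.62 SE, adjusted p = 0.0268), and its lower E13.5 library was close to 1 of the E15.5 libraries. Lars2, the mitochondrial leucyl-tRNA synthetase, measured 83.1 and 121 FPKM at E11.5, 661 and 513 FPKM at E13.5 and 102 and 260.1 FPKM at E15.5 (2.18 ± 0.49 SE, adjusted p = 0.00622). When E13.5 replicate 1 was left out, Rn45s (adjusted p = 0.0788), Rmrp (adjusted p = 0.189) and Lars2 (adjusted p = 0.0574) were no longer called. In Ebf2-EGFP- cells their E13.5 libraries were 1736 and 4941 FPKM for Rn45s, 38.9 and 179 FPKM for Rmrp and 419 and 1639 FPKM for Lars2, with replicate 2 the higher in each, and the lower Rmrp library did not exceed the higher E15.5 library of those cells (39.1 FPKM). The RNA was captured by oligo-dT, while Rn45s and Rmrp are as a rule not polyadenylated, and the part that RNA quality had in the other peaks was not tested. The ribosomal list held 10 genes, 3 of them kinases that only share the prefix, and 1 was a called peak (10%, against 3.81% of all coding genes). It was Rpl22l1 (0.90 ± 0.25 SE, adjusted p = 0.0206). The globin gene Hbb-b2, whose reads may be split with near-identical globins, was a peak in which the E13.5 libraries gave 10.1 and 2.69 FPKM, and the other 4 libraries were between 1.33 and 1.67 FPKM. Its difference was 1.35 with all libraries, 0.56 without E13.5 replicate 1 and 2.15 without E13.5 replicate 2. Without E13.5 replicate 1 the calls of Hbb-b2 (adjusted p = 0.374) and Rpl22l1 (adjusted p = 0.187) were lost.

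The dips and peaks ended at different levels. Among the 456 called dips, E15.5 was called below E11.5 for 183 (40.1%), above it for 103 (22.6%) and neither for 170 (37.3%). Among the 185 called peaks these numbers were 36 (19.5%), 79 (42.7%) and 70 (37.8%). Over all coding genes the shares were 42.1%, 33.3% and 24.6%. Barhl2, Zic1 and Col1a1 were of the first kind among the dips, Trp73, Cacna2d2 and Grm3 of the second, and Lhx5, Calb2 and Gfra1 of the third. Among the peaks Rnd2 and Cxcr7 ended lower, Kcnn2 and Hs3st1 ended higher, and Slc30a10 and Tmem178 were not called.

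The same E13.5 difference was then taken in the Ebf2-EGFP- cells, which the choice of members did not use. Over all coding genes 627 (12.9%) were called lower there and 487 (10%) higher, and without E13.5 replicate 1 of the Ebf2-EGFP- cells 392 and 295. Of the 456 called dips, 181 (39.7%) were called lower in Ebf2-EGFP- cells too, 9 (1.97%) were called higher and 266 were not called, and 391 (85.7%) had a negative difference against 51% of all coding genes. Of the 185 called peaks, 105 (56.8%) were called higher in Ebf2-EGFP- cells, 1 was called lower and 79 were not called. The median difference in Ebf2-EGFP- cells was -0.35 for the called dips and 0.58 for the called peaks, against -0.0064 for all coding genes. Libraries of a stage that carry the same replicate number shared part of their deviations in the 2 populations (correlations of 0.431, 0.534 and 0.431), so these counts are not independent of the rule.

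**Figure D5:**
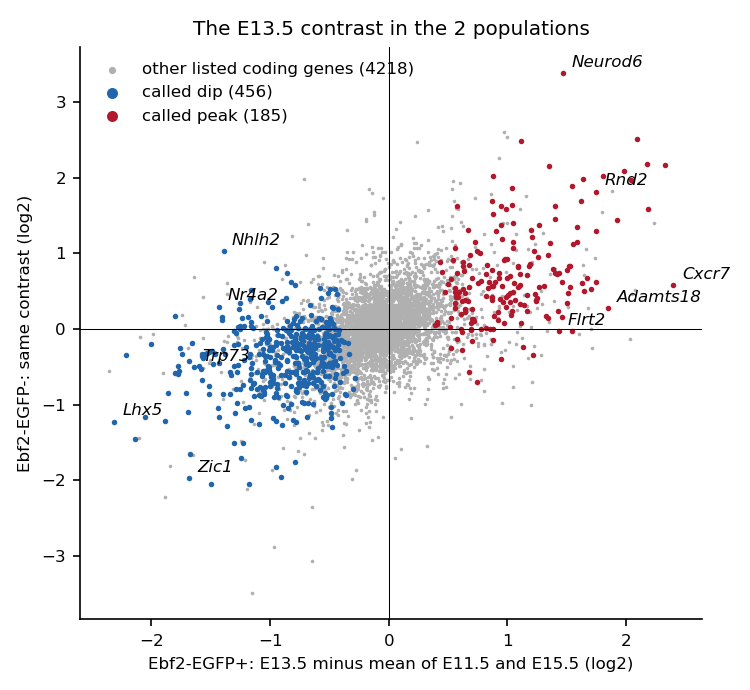
The E13.5 difference of each coding gene in Ebf2-EGFP+ cells (x axis) and in Ebf2-EGFP- cells (y axis), both in log2(FPKM + 1). Most called dips (blue) lie below 0 and most called peaks (red) above 0 on the y axis, Nhlh2 and Nr4a2 are dips with a positive value there, and Flrt2 and Adamts18 are peaks near 0.

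Named members differed in how they behaved in the 2 populations. Zic1 was called lower at E13.5 in both, with Ebf2-EGFP- levels of 57.7 and 63.5 FPKM at E11.5, 5.13 and 2.47 FPKM at E13.5 and 6.05 and 3.04 FPKM at E15.5. Its difference there was -1.98 (adjusted p = 0.000219), and the test of the difference between the populations gave 0.29 (adjusted p = 0.666). Rnd2 likewise peaked in both, and in Ebf2-EGFP- cells it measured 42.2 and 49.1 FPKM at E11.5, 356 and 309 FPKM at E13.5 and 185 and 198 FPKM at E15.5, with a difference there of 1.82 (adjusted p = 0.000112). Sema6d, Kcnn2, Slc30a10 and Slc15a2 also had both E13.5 libraries above the other 4 in Ebf2-EGFP- cells.

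The E13.5 difference itself differed between the populations for 270 coding genes (5.56%) that were lower in Ebf2-EGFP+ cells and 187 (3.85%) that were higher. With same-numbered libraries of a stage paired as a replicate block these counts were 734 and 428, and all 457 genes called without the block were called with it. Without E13.5 replicate 2 of the Ebf2-EGFP+ cells they were 85 and 75, and without E13.5 replicate 1 of the Ebf2-EGFP- cells 110 and 93. Leaving out E11.5 replicate 1 or E13.5 replicate 1 of the Ebf2-EGFP+ cells, or E11.5 replicate 1, E11.5 replicate 2 or E15.5 replicate 1 of the Ebf2-EGFP- cells, also moved at least 1 of the 2 counts by more than 1.5 times, to between 105 and 409. Of the called dips 95 (20.8%) were called lower in this test, and of the called peaks 36 (19.5%) were called higher. The members were picked by the same Ebf2-EGFP+ libraries that enter this test, so nothing is read from these shares. For Lhx5 the E13.5 difference in Ebf2-EGFP+ cells minus that in the negative cells was -1.09 (adjusted p = 0.00725). Lhx5 was itself called lower at E13.5 in Ebf2-EGFP- cells, whose libraries gave 3.68 and 3.87 FPKM at E11.5, 0.0748 and 0.0169 FPKM at E13.5 and 0.285 and 0.218 FPKM at E15.5. With a pseudocount of 0.1 the difference between the populations was 0.47 (adjusted p = 0.412), of the opposite sign, and by the ratio of mean FPKM at E13.5 to the geometric mean of the other stages the dip was deeper in Ebf2-EGFP- cells (log2 ratio -4.41) than in Ebf2-EGFP+ cells (-2.59). No direction between the populations can thus be given for Lhx5. Calb2 (-1.19, adjusted p = 0.016) and Trp73 (-1.14, adjusted p = 0.012) passed with a pseudocount of 1. For Calb2 the Ebf2-EGFP- libraries were at 0.253 and 0.15 FPKM at E11.5, 0.46 and 0.138 FPKM at E13.5 and 2.29 and 2.02 FPKM at E15.5. For Trp73 they were at 0.898 and 0.847 FPKM at E11.5, 0.172 and 0.191 FPKM at E13.5 and 0.726 and 0.295 FPKM at E15.5. Neither call held with a pseudocount of 0.1, which gave -0.68 for Calb2 (adjusted p = 0.395) and -0.30 for Trp73 (adjusted p = 0.687), and the log2 ratio of means for Trp73 was -1.88 in Ebf2-EGFP- cells against -1.72 in Ebf2-EGFP+ cells. Both calls were also lost without E13.5 replicate 2 of the Ebf2-EGFP+ cells (adjusted p = 0.0939 for Calb2 and 0.066 for Trp73), and that of Calb2 without E13.5 replicate 1 of the Ebf2-EGFP- cells (adjusted p = 0.08). Cacna2d2 did not pass (-0.18, adjusted p = 0.769).

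For Nhlh2, Nr4a2, Cxcr7, Flrt2, Adamts18 and Neurod6 the call held with a pseudocount of 0.1 and with any 1 library left out. Nhlh2 and Nr4a2 were lowest at E13.5 in Ebf2-EGFP+ cells and highest at that stage in the negative cells. In Ebf2-EGFP- cells Nhlh2 measured 1.85 and 1.31 FPKM at E11.5, 6.28 and 6.29 FPKM at E13.5 and 5.84 and 2.65 FPKM at E15.5, called higher at 1.02 (adjusted p = 0.0105), and the populations differed by -2.42 (adjusted p = 0.00254). Nr4a2 measured 4.66 and 5.50 FPKM at E11.5, 7.11 and 6.43 FPKM at E13.5 and 5.20 and 6.04 FPKM at E15.5 there, which was not called (0.30, adjusted p = 0.262), and the difference between the populations was -1.73 (adjusted p = 0.003). Cxcr7 peaked more sharply in Ebf2-EGFP+ cells (1.82, adjusted p = 0.00206), where it was below the Ebf2-EGFP- level at E11.5 and E15.5 and above it at E13.5. Its Ebf2-EGFP- libraries gave 12.3 and 13.2 FPKM at E11.5, a mean of 16.5 FPKM at E13.5 and 9.22 and 8.78 FPKM at E15.5. Flrt2 (1.46, adjusted p = 0.00447) and Adamts18 (1.57, adjusted p = 0.0025) were peaks that were not called in Ebf2-EGFP- cells. Neurod6 had a larger E13.5 difference in Ebf2-EGFP- cells (3.38) than in the positive cells (1.47), and the populations differed by -1.91 (adjusted p = 0.0025). Its Ebf2-EGFP- libraries gave 0.779 and 1.54 FPKM at E11.5, 257 and 322 FPKM at E13.5 and 377 and 342 FPKM at E15.5. At E13.5, where Calb2 was lowest, Ebf2-EGFP+ cells still held a mean of 14.8 FPKM of Calb2 against 0.299 FPKM.

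In the lncRNA table, where each entry is a transcript, 28 of 200 (14.0%) were dips and 18 (9.00%) were peaks by library order, and both conditions held for 13 dips (6.50%) and 11 peaks (5.50%). Without E13.5 replicate 2 these were 5 and 7, while peaks by order numbered 32, and without E13.5 replicate 1 dips by order numbered 49. Gm28050 measured 23.2 and 23.1 FPKM at E11.5, 5.89 and 3.77 FPKM at E13.5 and 12.4 and 12.99 FPKM at E15.5 (-1.66 ± 0.29 SE, adjusted p = 0.00311), and its E15.5 libraries lay between those of the other stages. Gm16277 measured 3.62 and 2.81 FPKM at E11.5, 0.521 and 0.298 FPKM at E13.5 and 2.49 and 4.45 FPKM at E15.5 (-1.61 ± 0.20 SE, adjusted p = 0.000346), with E11.5 and E15.5 overlapping. D930028M14Rik measured 7.93 and 5.91 FPKM at E11.5, 0.0869 and 0.0869 FPKM at E13.5 and 0.202 and 0.409 FPKM at E15.5 (-1.56 ± 0.14 SE, adjusted p = 7.48e-05), so that it was low at both later stages. Gm27199 measured 7.78 and 8.14 FPKM at E11.5, 2.06 and 2.68 FPKM at E13.5 and 5.14 and 12.7 FPKM at E15.5 (-1.44 ± 0.29 SE, adjusted p = 0.00543). Pantr1 measured 20.8 and 18.8 FPKM at E11.5, 6.58 and 6.62 FPKM at E13.5 and 10.8 and 10.5 FPKM at E15.5 (-1.03 ± 0.20 SE, adjusted p = 0.00519). The calls of Gm28050 (adjusted p = 0.0534) and Pantr1 (adjusted p = 0.0534) did not hold without E13.5 replicate 2, and without E13.5 replicate 1 that of Gm27199 (adjusted p = 0.0513).

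The largest lncRNA peak was 4833418N02Rik, with 1.02 and 1.004 FPKM at E11.5, 5.60 and 6.24 FPKM at E13.5 and 1.55 and 1.07 FPKM at E15.5 (1.69 ± 0.16 SE, adjusted p = 7.48e-05). The second largest, transcript ENSMUST00000198540.1, measured 1.95 and 3.24 FPKM at E11.5, 5.13 and 6.82 FPKM at E13.5 and 0.669 and 0.824 FPKM at E15.5 (1.48 ± 0.24 SE, adjusted p = 0.00193). The next 3 were RP23-253I14.3 (1.05), Gm20687 (1.04) and A930024E05Rik (0.96), with adjusted p of 0.00259, 0.0179 and 0.00445. When E13.5 replicate 1 was left out, Gm20687 (adjusted p = 0.139) was no longer called. In Ebf2-EGFP- cells the E13.5 means of these 3 were 5.82, 8.66 and 9.28 FPKM, and Gm20687 and A930024E05Rik were higher still at E15.5.

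Several of these lncRNAs lie beside coding genes that dipped or peaked with them. Gm27199 (chr5:120419659-120431767, minus strand, GRCm38) starts 68 bases from the start of Lhx5 on the opposite strand, and the 2 overlap there. Gm16277 (chr19:58204139-58236047, plus strand) overlaps the 3′ end of Gfra1 on the opposite strand. Pantr1 (chr1:42648193-42693128, minus strand) starts 2640 bases from Pou3f3 on the opposite strand. The transcript 2610035F20Rik starts 236 bases from Zic2 and differed by -0.77, and Zic2 by -1.06. Among the peaks, 6530402F18Rik starts 12 bases from Ntng2, A730020E08Rik 54 bases from Ccser1, 4833418N02Rik 1193 bases from Ttc7 and 9630028B13Rik 13029 bases from Slc30a10. These coding genes are all called peaks, with differences of 1.20, 1.05, 1.52 and 1.80.

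Taking the nearest coding gene by start site for every lncRNA placed in the annotation, 7 of 13 called dip lncRNAs had theirs in the coding table, and 7 of these 7 were called lower and 4 were dips. Of 10 placed called peak lncRNAs 6 had theirs in the table, of which 4 were called higher and 4 were peaks. Over all 196 placed lncRNAs, 106 had their nearest coding gene in the table, of which 34 were called lower and 11 higher. Of these 106 genes 22 were dips and 7 were peaks. The counting is not stated to use strand, so for pairs that overlap, such as Gm27199 with Lhx5 and Gm16277 with Gfra1, reads of the partners cannot be told apart.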

How the data were processed

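RNA-seq was analysed in 12 libraries, 2 for each of 3 stages and 2 populations. The authors aligned reads with TopHat2 (version 2.0.8b) to mm10, and the submitters' notes also name Cufflinks (2.2.0) and Cuffdiff. Their deposited values are FPKM per coding gene or lncRNA transcript, in separate tables of features reported as differential. Strand use and scaling between libraries are not given in the sources used here, and the fragment counts behind the values are unknown, so no counting error can be given. Columns with the authors' own fold changes and p-values were not used.

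Both tables were fitted separately with limma (3.58.1, R 4.3.3) on log2(FPKM + 1), with a pseudocount of 1, no filter on low values, eBayes moderation with a trend, all 12 libraries as 6 groups, 2-sided tests and Benjamini-Hochberg adjustment over each table. Calls used an adjusted p under 0.05. Each library pools embryos of several litters, so p-values measure the spread between pools. The members and gene lists were chosen with earlier results of these data known, so counts over them are descriptions. Features were named by rule: the 5 given markers, the 10 called dips and 10 called peaks with the largest differences, the 5 of each with the highest levels, the 5 lncRNAs of each with the largest differences, and up to 4 of each from every list. Other genes (list members that were no called dip or peak, genes at the edge of the rule and neighbours of lncRNAs) were named after their values were seen. The fit was tested on simulated data. Positions are from GENCODE M21 (GRCm38, the build of mm10), where 96 of 101 named features were placed.

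Same-numbered libraries of the 2 populations deviated together at each stage (correlations of 0.431, 0.534 and 0.431 in the coding table and 0.265, 0.385 and 0.435 for lncRNAs), so that the number pairs the populations within a stage. Across stages of the Ebf2-EGFP+ cells the correlations were 0.0896, -0.0421 and -0.00768, so that numbers do not pair stages. Alternatives were another pseudocount, other scalings, a minimum level, no trend, fewer libraries, replicate blocks, stricter thresholds and leaving out each library.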

Additional observations from a re-analysis of the deposited data

Results flagged for a closer look

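For 34 of the 101 named features the E13.5 difference in Ebf2-EGFP+ cells minus the same difference in Ebf2-EGFP- cells passed the limma test across all features. All values are on the log2(FPKM + 1) scale, with 2 libraries a group. Over all coding genes 5.56% were called lower in this test and 3.85% higher. The test shares the Ebf2-EGFP+ libraries with the choice of members, which were picked for large E13.5 differences there, so nothing is read from their share. With libraries of one stage and number paired, 48 of the 101 passed and none of the 34 was lost. With a pseudocount of 0.1, 22 of the 34 were still called, 11 were not and Lhx5 changed sign. Of the 34, 13 were still called without E13.5 replicate 2 of the Ebf2-EGFP+ cells and 13 without E13.5 replicate 1 of the Ebf2-EGFP- cells, and 23 to 32 with each other library left out.

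Among Cajal-Retzius genes the E13.5 difference was lower in Ebf2-EGFP+ cells for Nhlh2 (-2.42), Tmem163 (-1.97), Calb2 (-1.19), Trp73 (-1.14) and Lhx5 (-1.09). For Lhx5 the sign and for Calb2 and Trp73 the call depended on the pseudocount. Among other dips, the same held for the regulators Barhl2 (-1.88), Nr4a2 (-1.73) and Pou3f3 (-0.85). Receptor and guidance genes of this kind were Gfra1 (-1.81), Grm3 (-1.29), Ntn4 (-1.26), Grik4 (-0.73) and Grm4 (-0.57). Channel and other genes were Kcnip2 (-1.26), Fam65b (-1.21), Resp18 (-1.01), Cdh18 (-0.79) and Scn9a (-0.57). The lncRNAs were Gm28050 (-2.08), Gm16277 (-1.41), D930028M14Rik (-1.27) and Pantr1 (-1.01). Of these other dips the calls of Grik4, Kcnip2, Resp18, Scn9a, D930028M14Rik and Pantr1 were lost with a pseudocount of 0.1.

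Peaks that were larger in Ebf2-EGFP+ cells were Cxcr7 (1.82), Adamts18 (1.57), Fat4 (1.56), Flrt2 (1.46), Sema4d (1.16), Kcnn3 (1.04), Kcna1 (0.97) and Chrm3 (0.78). Of these peaks the calls of Kcnn3, Kcna1 and Chrm3 were lost with a pseudocount of 0.1. Fat4 was a dip by library order in Ebf2-EGFP- cells, where its E13.5 difference of -0.35 was not called. Peaks of Ebf2-EGFP+ cells with a larger E13.5 difference in Ebf2-EGFP- cells were Neurod6 (-1.91), Sstr2 (-1.37), Slc17a7 (-1.15) and Bhlhe22 (-0.60). Only Sstr2 was a peak by library order in Ebf2-EGFP- cells. Neurod6 and Bhlhe22 were higher there at E15.5 (means of 359 and 53.4 FPKM) than at E13.5 (290 and 25.5 FPKM). With median-of-ratios scaling the calls of Bhlhe22 (adjusted p = 0.204) and Slc17a7 (adjusted p = 0.0699) were lost.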

How the results depend on the processing

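Counts below are given as lower then higher, or dips then peaks. At an adjusted p under 0.01, the E13.5 difference was called for 526 and 240 coding genes, 10 and 8 lncRNAs and, in Ebf2-EGFP- cells, 366 and 251, and the difference between populations for 82 and 56. Both steps were then called for 99 and 57, and called lncRNA dips and peaks were 7 and 7. With a difference of at least 1 required, these were 204 and 139, 7 and 5, 104 and 124, 140 and 77, 33 and 31, and 6 and 4, and called coding dips and peaks were 136 and 87. With a margin of 0.25 in the library order, 250 and 117 coding genes and 10 and 11 lncRNAs were left by order, with 244 and 114 coding genes and 7 lncRNA dips called. With a mean FPKM of at least 1, the difference between populations was higher for 108 genes and 14 lncRNAs were called lower, and a pseudocount of 0.1 gave 120 for the first of these. The replicate number as a replicate block across stages gave 1024 and 461 calls, 492 and 196 called dips and peaks and 251 and 124 with both steps. Pairing the populations within a stage as a replicate block gave 734 and 428.

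Leaving out 1 library gave 385 to 932 and 232 to 422 coding calls, 254 to 500 and 150 to 241 called dips and peaks, 636 to 1014 and 244 to 456 by order, and 103 to 240 and 60 to 121 with both steps. For lncRNAs it gave 7 to 30 and 7 to 22 calls, 5 to 15 and 7 to 14 called dips and peaks, and 28 to 49 and 18 to 32 by order. In Ebf2-EGFP- cells it gave 392 to 662 and 295 to 640, and for the difference between populations 85 to 409 and 75 to 213. For the difference between populations, leaving out a library, the stricter thresholds, the filter, equal sums and the block across stages were alternatives chosen after seeing the data, as were those for Ebf2-EGFP- cells other than the pseudocount, median of ratios and leaving out their own libraries. Where this left a group with 1 library, that library was assumed to vary like the other groups.

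For the E13.5 difference in Ebf2-EGFP+ cells, 55 of 101 named features kept their side of the threshold under every alternative, none changed sign, and 146 of 1509 feature values lost the call, mostly with a difference of at least 1 required or an E13.5 library left out. For the difference between populations, Lhx5 changed sign with a pseudocount of 0.1, to 0.466, and 11 of the other 33 called named features lost the call there and 3 of 34 with median-of-ratios scaling. Scaling by median of ratios moved the median of all coding genes from -0.108 to -0.0332 and lowered the share of lower calls to 59.2%, with 772 and 531, and scaling to equal FPKM sums gave 64.1%, with 814 and 455.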

Other observations

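Genes of proliferating cells showed little of the E13.5 pattern in Ebf2-EGFP+ cells. Of 22 cell cycle genes 1 was called lower, none was a dip or a peak, and the median difference was 0.034, with a summed level of 587 and 533 FPKM at E11.5, 293 and 198 FPKM at E13.5 and 126 and 131 FPKM at E15.5. Intermediate progenitor genes, 14 in all, held 1 called lower, 2 higher and 1 called peak, Sstr2 (7.14%, against 3.81% of all coding genes). In Ebf2-EGFP- cells 11 of these 14 were called higher at E13.5, with a median of 1.07. The 16 radial glia genes held 3 called lower, 2 higher, 1 called dip (Tnc, 6.25%) and 1 called peak (Fabp7, 6.25%). Over all coding genes 9.38% were called dips and 3.81% called peaks, and 18.2% were called lower and 8.03% higher. The summed level of the radial glia genes was 839 and 786 FPKM at E11.5, 429 and 396 FPKM at E13.5 and 313 and 221 FPKM at E15.5.

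Of 17 GABA, glycine and acetylcholine receptor genes 4 were called lower and 4 higher, with Chrm3 the 1 called peak (5.88%). Of 37 synaptic vesicle and release genes 3 were called dips (8.11%) and 4 called peaks (10.8%). Cadherins and protocadherins, 30 in all, held 3 called dips (10%) and 3 called peaks (10%). Over all coding genes these shares were 9.38% and 3.81%, and 18.2% were called lower and 8.03% higher. Of 23 Notch pathway genes 3 were called lower and 1 higher, with Jag2 the called dip (4.35%). Of 9 immediate early and stress genes 2 were called lower and none was a dip or a peak. The 5 endothelial genes in the table held no called dip or peak and summed to between 1.49 and 9.76 FPKM. The 7 erythroid genes summed to 100 and 34.7 FPKM at E11.5, 15.1 and 9.97 FPKM at E13.5 and 9.29 and 29.7 FPKM at E15.5, with Hbb-b2 the called peak. For microglia and macrophages only 2 genes, and for mitochondrial respiration only 2, were in the table, with no called dip or peak.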
